A study of Mus musculus with 36 samples.

Results

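The genes described here are 10 members of the insulin-like growth factor (IGF) system: the ligand gene Igf1, the receptor genes Igf1r and Insr, and the genes of the IGF binding proteins Igfbp1 to Igfbp7. They were chosen by name, and all 10 were found among the 50600 genes listed for the sorted Day 3 cells and among the 29267 genes listed for the other libraries. The RNA-seq libraries come from a mouse study of BiPNT, the transition from the primed to the naive pluripotent state that BMP4 induces in epiblast stem cells (EpiSCs). In total 11 libraries in 3 experiments were used. Groups were compared within an experiment only, apart from counts of Igfbp5 and Igfbp6 at Day 3, which are set side by side without a test. The likeness of genes at the end was taken over 7 libraries of 2 experiments.

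In the first experiment, cells at Day 3 of BiPNT were sorted by c-Kit, the receptor encoded by Kit, into c-Kit+ cells (2 libraries) and c-Kit- cells (2 libraries). In the second, 3 libraries of EpiSCs, kept in N2B27 with Activin A, bFGF and the tankyrase inhibitor XAV939, were compared with 2 libraries of BV+SC+ cells sorted at Day 6. BV and SC are Blimp1-mVenus and Stella-ECFP, reporter transgenes for Prdm1 and Dppa3 in an EpiSC line made from reporter embryonic stem cells. For BV+SC+ cells the labels give 3 days of iCD1 (vitamin C, bFGF, LiCl, LIF and CHIR99021) with BMP4, the DOT1L inhibitor EPZ5676 and the EZH2 inhibitor EPZ6438, and then 3 days of N2B27 with PD0325901, CHIR99021 and vitamin C. The labels also tag BV+SC+ replicate 1 as 2iJi and replicate 2 as GK15 without saying what the tags mean. In the paper GK15 is the name of another medium tried in the second stage of culture, and no label says whether replicate 2 was grown in it. The paper also tried a JAK inhibitor in that stage, which the medium listed above does not name. Tag, medium and replicate thus cannot be told apart. In the third experiment, Day 3 cells with SGC0946, another DOT1L inhibitor (+SGC, 1 library), were compared with Day 3 cells without it (-SGC, 1 library), and no label names a sort for them.

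IGF1 and IGF2 are secreted peptides that activate the IGF1 receptor tyrosine kinase, encoded by Igf1r, and IGF2 and insulin also act through the insulin receptor, encoded by Insr. The activated receptors phosphorylate insulin receptor substrates and feed the PI3K-AKT-mTOR and RAS-ERK pathways, which support growth and survival of pluripotent and early embryonic cells. The IGF binding proteins are secreted, hold IGFs outside the cell, lengthen their life in body fluids and either limit or extend their access to the receptors, and IGFBP7 binds IGFs only weakly.

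The libraries of the sorted Day 3 cells held 1726038 and 1841442 expected counts (c-Kit+) and 1826460 and 1798944 (c-Kit-). The EpiSC libraries held 3070115, 2970222 and 2444211, the BV+SC+ libraries 14778809 and 18099059, the +SGC library 4776143 and the -SGC library 4577685. Levels are given as TPM, a share of transcripts corrected for their length, and depth in expected counts per gene. A gene with 0 counts could still be present at up to 3 counts, which in CPM, a count scaled to the library's total, is 1.63 to 1.74 in the sorted cells, 0.977 to 1.23 in EpiSCs, 0.203 and 0.166 in BV+SC+ cells, 0.628 in +SGC and 0.655 in -SGC. Such floors and all intervals below cover counting error only. More than 3 counts were found for 6 of the 10 members in each c-Kit+ library and each EpiSC library, for 7 in each c-Kit- library and the +SGC library, and for 8 in each BV+SC+ library and the -SGC library.

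**Figure D1:**
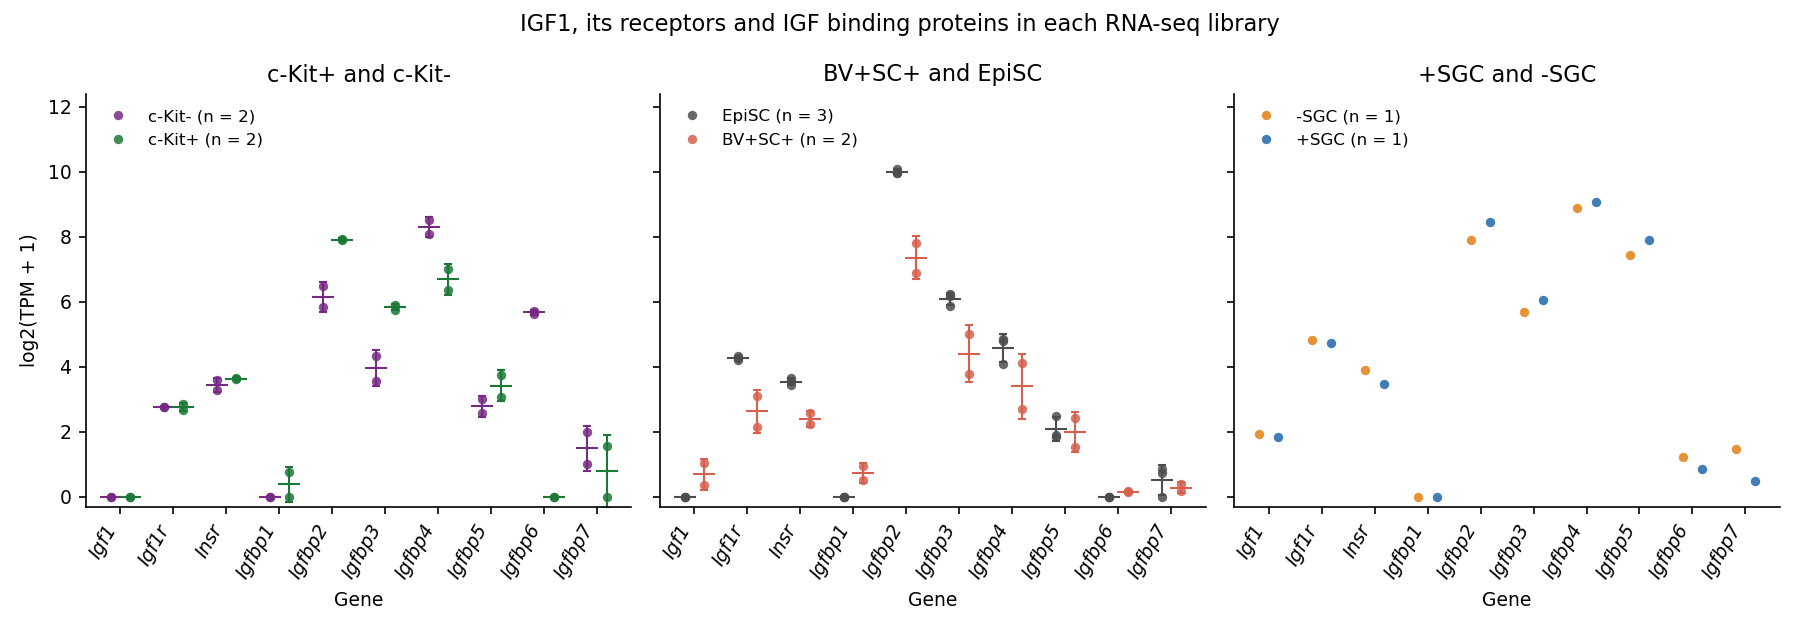
Levels of the 10 genes as log2(TPM + 1) in each library of the 3 experiments; points are libraries, and horizontal bars with whiskers are group means and SD where a group has at least 2 libraries. Of these genes Igfbp2 was highest in every EpiSC, BV+SC+ and c-Kit+ library, and Igfbp4 in every c-Kit-, +SGC and -SGC library.

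The first comparison asks how the c-Kit+ population, which the study follows towards the naive state, differs from the c-Kit- population of the same day. Igfbp2 and Igfbp3 were higher in c-Kit+ cells, by 3.69-fold and 4.02-fold, and Igfbp4 and Igfbp6 were lower, by 2.57-fold and at least 15.9-fold. Both receptor genes had nearly the same counts in the 2 populations, and Igf1 had no count in any of the 4 libraries. A gene was called at a Benjamini-Hochberg adjusted p under 0.05 over all genes tested, from edgeR's quasi-likelihood test, with a fold change over 2. Of the 10 members, 7 passed the filter on low counts, and 2 of them were called higher in c-Kit+ cells, where 9.98% of all 11018 genes tested were called higher. Another 2 were called lower, beside 12.9% of all genes tested. Of these, Igfbp6 had no count in c-Kit+ cells. The number called lower fell to 1, Igfbp4, when genes below 10 counts in any library were dropped. With no filter it stayed at 2. In bulk libraries, fewer cells of a type and less RNA per cell cannot be told apart, and with 2 libraries a group the p-values measure a spread between libraries that may be technical.

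Igf1, the ligand gene, stood at 0 counts in c-Kit+ and c-Kit- cells alike, so its level was below 1.74 CPM and a difference was not detectable at this depth. Igf1r, the gene of the IGF1 receptor, had expected counts of 69 and 64 in c-Kit+ cells and of 64 and 63 in c-Kit- cells. Its TPM were 6.22 and 5.36 in c-Kit+ cells and 5.82 and 5.81 in c-Kit- cells, so the groups overlapped in TPM. In TMM-scaled CPM they did not, at 37.9 ± 3.61 in c-Kit+ and 34.5 ± 0.335 in c-Kit- cells (SD, n = 2). The log2 fold change of Igf1r was 0.13 (SE 0.21, edgeR quasi-likelihood test, Benjamini-Hochberg adjusted p = 0.641). Insr, the gene of the insulin receptor, had 47 and 49 expected counts in c-Kit+ cells and 51 and 55 in c-Kit- cells, and TPM of 11.4 and 11.5 against 11.2 and 8.74. The insulin receptor gene was thus slightly below the c-Kit- libraries in counts and above them in TPM. Its log2 fold change on the count scale was -0.08 (SE 0.23, edgeR quasi-likelihood test, Benjamini-Hochberg adjusted p = 0.807), and with an offset for the effective length of the gene in each library, an alternative chosen after seeing the data, it was 0.35 (adjusted p = 0.361).

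Igfbp2 (ENSMUSG00000039323, chr1:72824503-72852474 on the plus strand of GRCm38) encodes a binding protein that is abundant in fetal tissues. Its TPM were 237 and 246 in the c-Kit+ libraries and 88.1 and 56.1 in the c-Kit- libraries. The c-Kit+ libraries were close together and both above the c-Kit- libraries, which differed more between themselves. For Igfbp2 the log2 fold change was 1.88 (SE 0.19, edgeR quasi-likelihood test, Benjamini-Hochberg adjusted p = 6.4e-05). Igfbp3 (ENSMUSG00000020427, chr11:7206086-7213923, minus strand) encodes the main carrier of IGFs in adult serum. Its TPM were 59.0 and 53.5 in c-Kit+ cells and 19.4 and 10.9 in c-Kit- cells. Again both c-Kit+ libraries lay above both c-Kit- libraries. Igfbp3 had a log2 fold change of 2.01 (SE 0.27, edgeR quasi-likelihood test, Benjamini-Hochberg adjusted p = 0.000346), and it was 1.60 without c-Kit- replicate 2 and 2.51 without c-Kit- replicate 1.

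Igfbp4 (ENSMUSG00000017493, chr11:99041244-99054392, plus strand) encodes a binding protein that mostly inhibits IGF action and is cut by the protease PAPP-A. Its TPM were 129 and 81.3 in the c-Kit+ libraries and 366 and 273 in the c-Kit- libraries. Both c-Kit- libraries were above both c-Kit+ libraries, with a spread between replicates in each group. On the log2 scale the change of Igfbp4 was -1.36 (SE 0.17, edgeR quasi-likelihood test, Benjamini-Hochberg adjusted p = 0.000257). Igfbp6 (ENSMUSG00000023046, chr15:102144362-102149511, plus strand) encodes a binding protein that prefers IGF2 over IGF1. It had counts of 0 and 0 in c-Kit+ cells and of 52 and 48 in c-Kit- cells, where its TPM were 51.9 and 48.5. Of the sorted cells it was thus detected in c-Kit- cells alone. It was at least 15.9-fold lower in c-Kit+ cells when the c-Kit+ level was set at the floor of 3 counts in each library (edgeR quasi-likelihood test, Benjamini-Hochberg adjusted p = 9.03e-05). A filter of at least 10 counts in every library would remove it.

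Igfbp5, the gene of a binding protein that attaches to extracellular matrix, had 73 and 47 expected counts in c-Kit+ cells and 38 and 28 in c-Kit- cells. Its TPM were 12.6 and 7.52 against 7.1 and 4.93, so the c-Kit+ libraries were higher without overlap, but by little. The log2 fold change of Igfbp5 was 0.93, a fold of 1.91 (SE 0.31, edgeR quasi-likelihood test, Benjamini-Hochberg adjusted p = 0.0375), and it missed the fold threshold. It passed at 1.22 without c-Kit+ replicate 2 and at 1.13 without c-Kit- replicate 1, and it was 0.51 without c-Kit+ replicate 1. Igfbp1, best known as a liver protein regulated by insulin, had 1 count in c-Kit+ replicate 1 and 0 in the other libraries. Igfbp7 had 2 and 0 counts in c-Kit+ cells and 3 and 1 in c-Kit- cells, so neither gene exceeded the floor and neither was tested.

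Ordered by mean TPM, the members in c-Kit+ cells ran from Igfbp2 (241 ± 6.32, SD, n = 2) over Igfbp4 (105 ± 33.7) and Igfbp3 (56.2 ± 3.88) to Insr (11.5 ± 0.0707), Igfbp5 (10.05 ± 3.58) and Igf1r (5.79 ± 0.608). Insr and Igfbp5 did not differ beyond their spread, and the others did not overlap with their neighbours in that order. In c-Kit- cells Igfbp4 came first (319.9 ± 65.7), then Igfbp2 (72.1 ± 22.6), Igfbp6 (50.2 ± 2.36), Igfbp3 (15.1 ± 5.98) and Insr (9.96 ± 1.73), with Igfbp5 and Igf1r last. There the libraries of Igfbp3 overlapped with those of Insr and those of Igfbp5 with those of Igf1r, and Igfbp2 and Igfbp6 differed by less than the SD of Igfbp2. Summed over the 7 binding protein genes, the TPM were 439.9 and 388 in c-Kit+ cells and 536 and 395 in c-Kit- cells. The sums overlapped, while their make-up did not: Igfbp2 took 53.8% and 63.3% of the sum in c-Kit+ cells against 16.4% and 14.2% in c-Kit- cells. Igfbp4 took 29.3% and 20.9% in c-Kit+ cells against 68.4% and 69.2% in c-Kit- cells, and Igfbp6 took 9.68% and 12.3% in c-Kit- cells.

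**Figure D2:**
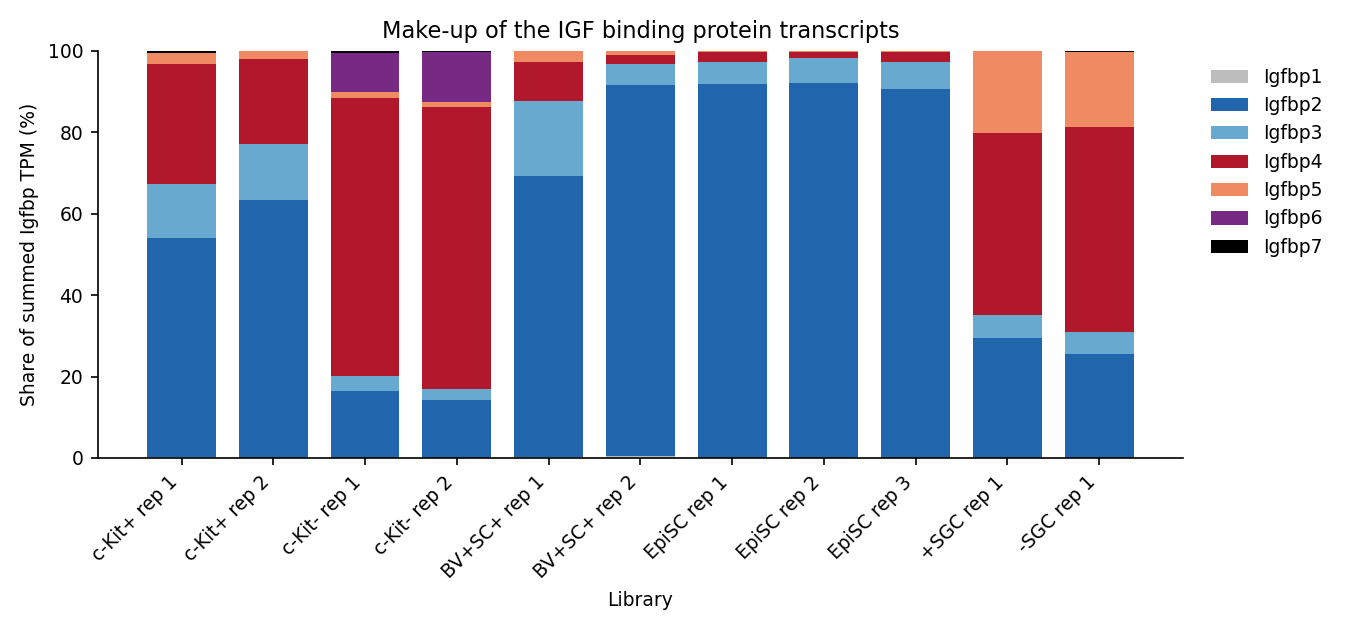
Share of each of the 7 IGF binding protein genes in their summed TPM, as stacked bars that reach 100%, for the 11 libraries. Igfbp2 took 90.5% to 92.2% in EpiSCs, and Igfbp4 took more than any other binding protein gene in c-Kit-, +SGC and -SGC libraries.

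Igf2, the other IGF ligand gene, was the gene with the highest TPM of all genes in c-Kit- replicate 1 and stood at rank 2 in c-Kit- replicate 2. Its TPM were 2284 and 1590 in the c-Kit+ libraries and 12049 and 12253 in the c-Kit- libraries. It was high in all 4 libraries and higher in c-Kit- cells without overlap. Igf2 had a log2 fold change of -2.52, a fold of 5.74 (SE 0.11, edgeR quasi-likelihood test, Benjamini-Hochberg adjusted p = 8e-07). Igf2r, whose receptor takes up IGF2 for breakdown, had TPM of 172 and 140.5 in c-Kit+ cells and 234 and 215 in c-Kit- cells. The libraries did not overlap, but the log2 fold change of Igf2r of -0.36 missed the fold threshold (SE 0.10, edgeR quasi-likelihood test, Benjamini-Hochberg adjusted p = 0.0186). Irs1, the gene of a receptor substrate, rose in c-Kit+ cells, from 9.03 and 11.5 expected counts in c-Kit- libraries to 28.6 and 44.4 (log2 fold change 1.84, SE 0.40, edgeR quasi-likelihood test, Benjamini-Hochberg adjusted p = 0.00529). Without c-Kit+ replicate 2 it was 1.53 and missed the test (adjusted p = 0.0712). Its relative Irs2 had a log2 fold change of 0.15 (edgeR quasi-likelihood test, Benjamini-Hochberg adjusted p = 0.451), with overlapping libraries.

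Among 64 other genes of the pathway in 4 lists, 49 were tested in the sorted cells, 5 were called higher in c-Kit+ cells and 9 lower. Of all genes tested, 9.98% were called higher and 12.9% lower. The median log2 fold change of the tested list genes was 0.12, beside 0.03 for all genes tested. Of the list of ligands, other receptors and extracellular partners, which also holds the RNA binding proteins Igf2bp1, Igf2bp2 and Igf2bp3, 1 of 7 tested was higher, an RNA binding protein gene, and 2 were lower. These called genes include Htra1, a secreted protease, at a log2 fold change of -2.99 (SE 0.42), and Igf2bp3, an RNA binding protein for IGF2 messages, at 1.20 (SE 0.15), with Benjamini-Hochberg adjusted p of 0.000437 and 0.000243 by edgeR's quasi-likelihood test. Htra1 was at -3.81 without c-Kit+ replicate 1, which left 5 counts in c-Kit+ cells. Of 3 IGFBP-related genes tested, 1 was called, Igfbpl1, at 2.78 (SE 0.45, edgeR quasi-likelihood test, Benjamini-Hochberg adjusted p = 0.00106), and at 3.53 without c-Kit- replicate 1. Of 14 receptor substrates and adaptors tested, 2 were higher and 3 lower. Socs2, a feedback inhibitor of cytokine and growth hormone signals, was at 2.64 and the adaptor genes Sh2b2 and Gab1 at -2.46 and -1.14 (edgeR quasi-likelihood test, Benjamini-Hochberg adjusted p = 1.86e-05, 6.65e-05 and 0.000387). Of 25 genes of the PI3K-AKT-mTOR arm, 1 was higher and 4 were lower. Rictor, of mTOR complex 2, was at 1.78, the kinase gene Akt1 at -1.46 and the PI3K regulatory subunit gene Pik3r3 at -1.41 (edgeR quasi-likelihood test, Benjamini-Hochberg adjusted p = 0.000502, 3.43e-05 and 0.00217).

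The sort was visible in the label genes. Kit had a log2 fold change of 5.28, Pou5f1 of 4.34, Prdm1 of 4.77 and the trophoblast factor gene Gata2 of -3.52, each called, while Dot1l was at 0.04. Prdm1, with 1 and 7 counts in c-Kit- cells, was at 6.62 without c-Kit- replicate 2 and at 3.95 without c-Kit- replicate 1. Dppa3 had 1 count in each c-Kit- library and a ratio of 57.0 (95% counting interval 15.4 to 476). Markers of other cell types moved with the sort as well. The summed TPM of 11 trophoblast markers were 1658 and 1416 in c-Kit+ cells and 6974 and 6374 in c-Kit- cells, with Peg10 the most abundant and none at 0. For 6 pluripotency markers they were 2358 and 2425 in c-Kit+ cells, led by Pou5f1, and 282 and 249 in c-Kit- cells, where Sox2 was at 0 in replicate 1 and Nanog at 0 in replicate 2. For 7 germ cell markers, led by Tfap2c, they were 495 and 421 against 190.2 and 174, with Prdm14 and Nanos3 at 0 in c-Kit- cells. Tfap2c was nearly the same in the 2 populations (193 and 181 against 182 and 165.5), and the other 6 germ cell markers summed to 302 and 239 against 8.19 and 8.88. These 6 include Kit, the gene of the sort, with a mean TPM of 97.8 in c-Kit+ and 4.025 in c-Kit- cells, so that part was set by the sort.

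For 7 naive markers, led by Klf2, the sums were 479 and 369 in c-Kit+ cells and 265 and 239.9 in c-Kit- cells, with Zfp42 at 0 in both c-Kit- libraries. For 8 mesoderm markers they were 256 and 266 in c-Kit+ cells, led by T, and 559 and 441 in c-Kit- cells, led by Hand1, which is also among the trophoblast markers. Without Hand1 the direction turns, with 153 and 191 in c-Kit+ cells and 6.72 and 6.52 in c-Kit- cells, and Mesp1 and Foxf1 were at 0 in all 4 libraries. For 5 amnion markers, led by Wnt6, they were 77.0 and 57.9 in c-Kit+ cells and 252 and 228 in c-Kit- cells, with Gabrp at 0 in all 4. The amnion markers Tfap2a and Krt7 are also among the trophoblast markers, so the lists are not separate. For 8 fibroblast markers, led by Col1a1 or Col1a2, the sums were 60.5 and 49.0 against 189 and 163. For 4 primed markers, led by Dnmt3b, they were 65.3 and 64.1 against 77.8 and 84.4. Of these, Fgf5 was at 0 in both c-Kit- libraries and Otx2 in c-Kit- replicate 1, and neither was at 0 in c-Kit+ cells. For 9 endoderm markers the sums were 22.2 and 10.1 against 20.5 and 34.6, with Afp, Ttr and Apoa1 at 0 in all 4. The endoderm sums overlapped, and without Sox17 they were higher in c-Kit+ cells, at 16.7 and 9.41 against 4.21 and 7.82, and without Dab2 lower, at 14.7 and 5.4 against 19.9 and 32.2. The paper names Igfbp3 along with Isl1 as an amnion marker, and Igfbp3 is not in the amnion list used here. Opposite to the sums of that list, Igfbp3 was higher in c-Kit+ cells, lower in BV+SC+ cells than in EpiSCs, and higher in +SGC than in -SGC. The part of these cell types in the levels of Igfbp4, Igfbp6 and the other members was not tested.

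**Figure D3:**
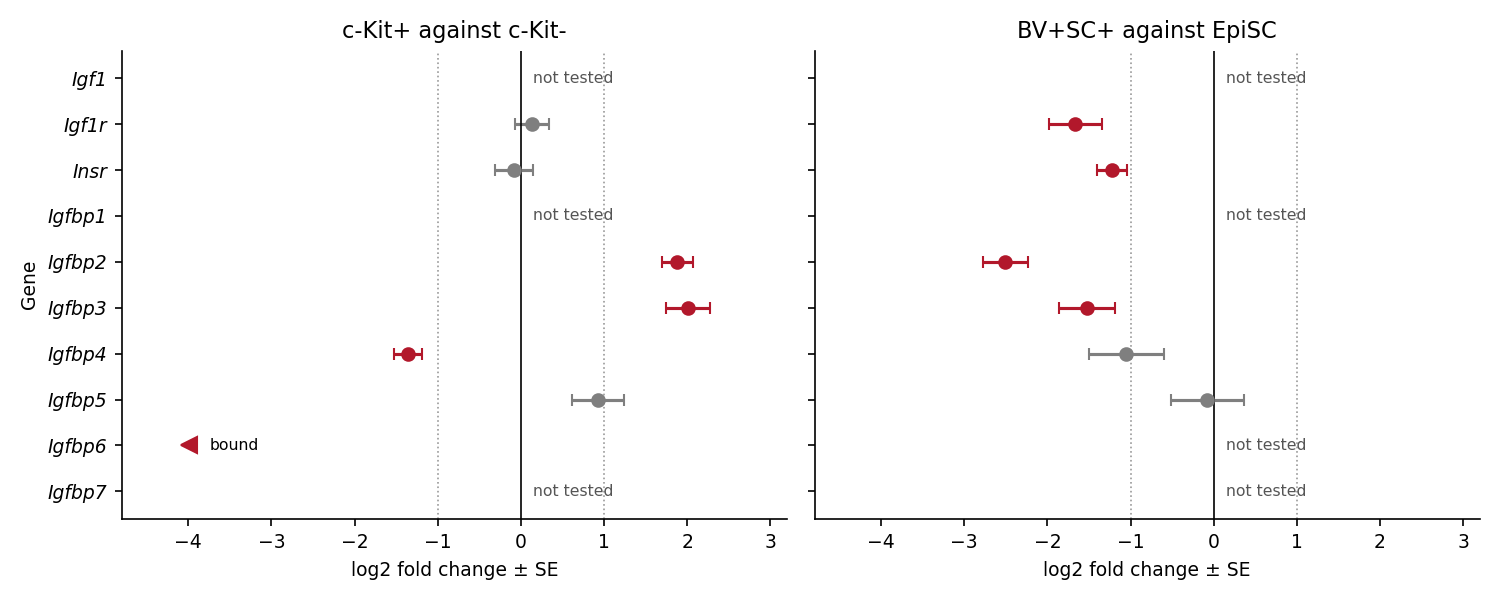
Log2 fold changes of the 10 genes with SE, from edgeR, for c-Kit+ against c-Kit- cells and BV+SC+ cells against EpiSCs; red points passed the test and the fold threshold, grey points did not, dotted lines mark 2-fold, and the triangle is the bound for Igfbp6. In c-Kit+ cells Igfbp2 lay at 1.88 and Igfbp3 at 2.01, and in BV+SC+ cells at -2.50 and -1.52.

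The second comparison asks how Day 6 cells with both germ cell reporters on differ from EpiSCs. Igfbp2, Igfbp3, Igf1r and Insr were lower in BV+SC+ cells, by 5.67-fold, 2.87-fold, 3.17-fold and 2.34-fold. Of the 10 members, 6 passed the filter, and 4 of these were called lower, beside 17.2% of all 11792 genes tested. Called higher were 0 members by edgeR's quasi-likelihood test, beside 16.8% of all genes tested, and the number was also 0 at an unadjusted p under 0.05 and with DESeq2. The chi-square per degree of freedom between the counts of the BV+SC+ libraries was 45.3. It was 2.01 to 3.62 between EpiSC libraries, 2.04 between c-Kit+ libraries and 4.46 between c-Kit- libraries. This measure rises with depth, and the depth of BV+SC+ libraries is higher, so alone it does not show how far apart they stood. Values without each BV+SC+ library are given below, for members and for other named genes that moved by over 1.5-fold without one.

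Igf1, the ligand gene, had 10 and 16 expected counts in the BV+SC+ libraries and 0 in each EpiSC library. At 0.781 ± 0.174 CPM (SD, n = 2) its level in BV+SC+ cells was under the floor of each EpiSC library alone. Pooled, the groups had 26 counts and 0, and the 95% counting interval of the CPM ratio starts at 1.69, which covers no spread between libraries. The gene did not pass the filter on low counts, and it was called higher only in the fit without that filter. Igf1r (ENSMUSG00000005533, chr7:67952827-68233668, plus strand) had TPM of 7.58 and 3.47 in the BV+SC+ libraries and 18.4, 17.6 and 19.2 in the EpiSC libraries. The EpiSC libraries were within a narrow range and all above both BV+SC+ libraries. The log2 fold change of Igf1r was -1.66 (SE 0.32, edgeR quasi-likelihood test, Benjamini-Hochberg adjusted p = 0.00279), with -2.30 without BV+SC+ replicate 1 and -1.22 without BV+SC+ replicate 2. Insr (ENSMUSG00000005534, chr8:3122061-3279617, minus strand) had TPM of 4.98 and 3.71 in BV+SC+ cells and 9.82, 11.6 and 10.8 in EpiSCs. Here too the groups did not overlap, and the BV+SC+ libraries were closer to each other than for Igf1r. Insr had a log2 fold change of -1.23 (SE 0.18, edgeR quasi-likelihood test, Benjamini-Hochberg adjusted p = 0.000893), with -1.42 without BV+SC+ replicate 1 and -1.05 without BV+SC+ replicate 2.

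Igfbp2 had TPM of 118 and 226 in the BV+SC+ libraries and 1001, 1092 and 1001 in the EpiSC libraries. EpiSCs thus held it among their most abundant messages, at ranks 108, 96 and 105 by TPM, and BV+SC+ cells at ranks 1564 and 759. For Igfbp2 the log2 fold change was -2.50 (SE 0.27, edgeR quasi-likelihood test, Benjamini-Hochberg adjusted p = 0.000182), with -2.09 without BV+SC+ replicate 1 and -3.08 without BV+SC+ replicate 2. Igfbp3 had TPM of 31.6 and 12.8 in BV+SC+ cells and 57.8, 71.7 and 74.1 in EpiSCs. All EpiSC libraries were above both BV+SC+ libraries, and BV+SC+ replicate 1 was the higher of its pair, the reverse of Igfbp2. Igfbp3 had a log2 fold change of -1.52 (SE 0.34, edgeR quasi-likelihood test, Benjamini-Hochberg adjusted p = 0.00605), with -2.27 without BV+SC+ replicate 1 and -1.03 without BV+SC+ replicate 2.

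Igfbp4 had TPM of 16.3 and 5.52 in the BV+SC+ libraries and 27.8, 15.9 and 27.01 in the EpiSC libraries. In TPM BV+SC+ replicate 1 lay within the EpiSC range and replicate 2 below it. As TMM-scaled CPM, without the correction for length, the values were 22.2 and 7.18 against 25.0, 28.9 and 37.5, so both lay below all EpiSC libraries. The log2 fold change of Igfbp4 was -1.05 (SE 0.45, edgeR quasi-likelihood test, Benjamini-Hochberg adjusted p = 0.0788), which missed the threshold. Without BV+SC+ replicate 1 it was -2.07 (adjusted p = 4.13e-05) and without BV+SC+ replicate 2 -0.45 (adjusted p = 0.106), from the same edgeR quasi-likelihood test. Igfbp5 had TPM of 4.35 and 1.93 against 2.59, 4.68 and 2.78, low and overlapping in both groups. The log2 fold change of Igfbp5 was -0.08 (SE 0.44, edgeR quasi-likelihood test, Benjamini-Hochberg adjusted p = 0.891). It was -0.82 without BV+SC+ replicate 1 (adjusted p = 0.0578) and turned to 0.41 without BV+SC+ replicate 2, and neither was called.

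Igfbp1 had 5 and 13 expected counts in BV+SC+ cells and 0 in each EpiSC library, 0.532 ± 0.287 CPM (SD, n = 2), which is again under the floor of each EpiSC library. From 18 pooled counts against 0, the 95% counting interval of its CPM ratio starts at 1.13. Igfbp6 had 1 count in each BV+SC+ library and 0 in EpiSCs, and Igfbp7 had between 0 and 3 counts in the 5 libraries. These genes and Igf1 did not pass the filter. Ordered by mean TPM, EpiSCs ran from Igfbp2 (1031 ± 52.2, SD, n = 3) over Igfbp3 (67.9 ± 8.84), Igfbp4 (23.6 ± 6.65), Igf1r (18.4 ± 0.805) and Insr (10.7 ± 0.896) to Igfbp5 (3.35 ± 1.16), and Igfbp4 and Igf1r overlapped. In BV+SC+ cells the order was Igfbp2 (172 ± 76.3, SD, n = 2), Igfbp3 (22.2 ± 13.3), Igfbp4 (10.9 ± 7.64), Igf1r (5.53 ± 2.91), Insr (4.34 ± 0.898) and Igfbp5 (3.14 ± 1.71), and all neighbours but Igfbp2 and Igfbp3 overlapped. The summed TPM of the binding protein genes were 171 and 248 in BV+SC+ cells and 1090.2, 1184 and 1106 in EpiSCs. Igfbp2 took 69.0% and 91.3% of the sum in BV+SC+ cells and 91.9%, 92.2% and 90.5% in EpiSCs, so BV+SC+ replicate 2 lay within the EpiSC range and replicate 1 below it.

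Igf2 had TPM of 169.8 and 75.9 in BV+SC+ cells and 24.9, 21.9 and 23.4 in EpiSCs. The ligand gene was thus higher in both BV+SC+ libraries, and higher in replicate 1 than in replicate 2. Igf2 had a log2 fold change of 2.93 (SE 0.31, edgeR quasi-likelihood test, Benjamini-Hochberg adjusted p = 0.000167), with 2.28 without BV+SC+ replicate 1 and 3.38 without BV+SC+ replicate 2. Igf2r rose as well, with TPM of 69.1 and 72.3 against 28.5, 36.1 and 36.6 (log2 fold change 1.15, SE 0.13, edgeR quasi-likelihood test, Benjamini-Hochberg adjusted p = 0.000209). Irs2 fell, with TPM of 4.64 and 4.04 against 44.6, 35.7 and 28.6 (log2 fold change -2.99, SE 0.23, edgeR quasi-likelihood test, Benjamini-Hochberg adjusted p = 4.4e-05). Irs1 had overlapping libraries and a log2 fold change of -1.17 (SE 0.63, edgeR quasi-likelihood test, Benjamini-Hochberg adjusted p = 0.148). Without BV+SC+ replicate 1, which had 106 expected counts of Irs1 against 28.6 in replicate 2, the same test gave -2.54 (adjusted p = 0.00073), past the threshold, and without BV+SC+ replicate 2 it gave -0.47 (adjusted p = 0.298).

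Of the 64 other pathway genes, 63 were in the table of this experiment, where Rps6kb1 was not listed, and 49 were tested. By edgeR 7 were called higher in BV+SC+ cells and 13 lower, beside 16.8% and 17.2% of all genes tested. The median log2 fold change was -0.40 beside 0.05 for all genes tested. Of 8 genes tested from the list of ligands, receptors and partners, 2 were higher (Igf2 and Igf2r) and 2 lower, among them Stc2, a secreted inhibitor of the IGFBP protease PAPP-A, at -3.34 (SE 0.36, edgeR quasi-likelihood test, Benjamini-Hochberg adjusted p = 0.000188). Of 3 IGFBP-related genes tested, Igfbpl1 and Ccn2 were higher and Ccn1 was lower. Igfbpl1 had at most 1 count in an EpiSC library and a ratio of 140.4 (95% counting interval 38.8 to 1161), Ccn2 had a ratio of 56.7 (24.1 to 144), and Ccn1 a log2 fold change of -3.88 (SE 0.38). Their Benjamini-Hochberg adjusted p by edgeR's quasi-likelihood test were 0.000265, 2.7e-05 and 0.000128. With BV+SC+ replicate 1 left out the ratio of Igfbpl1 was 70.3 (19.3 to 584) and with replicate 2 left out 222 (61.2 to 1835), and the log2 fold change of Ccn1 was -3.40 and -4.65. Of 14 receptor substrates and adaptors tested, 1 was higher and 6 were lower, with Sh2b2 at -4.25 and Grb10, an adaptor that dampens insulin and IGF1 receptor signals, at -3.06 (SE 0.35 and 0.54, edgeR quasi-likelihood test, Benjamini-Hochberg adjusted p = 5.53e-05 and 0.00199). Grb10 had TPM of 47.4 and 10.9 in BV+SC+ cells and 231, 262 and 251 in EpiSCs, and its log2 fold change was -4.48 without BV+SC+ replicate 1 and -2.35 without BV+SC+ replicate 2. Of 24 genes of the PI3K-AKT-mTOR arm tested, 2 were higher and 4 lower. The PI3K catalytic subunit gene Pik3cb was at 1.47 and Rictor at 1.46 (edgeR quasi-likelihood test, Benjamini-Hochberg adjusted p = 0.000818 and 0.00022).

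The label genes separated these groups. Dppa3 was at least 387-fold higher in BV+SC+ cells, with no count in EpiSCs, and Kit and Prdm1 had log2 fold changes of 4.91 and 7.55. Pou5f1 was at -0.41 and Dot1l at 0.11, neither of them called, and Gata2 had a ratio of 46.5 (95% counting interval 15.8 to 226) from low counts in EpiSCs. That ratio was 21.4 (7.16 to 104.9) without BV+SC+ replicate 1 and 75.7 (25.7 to 369) without BV+SC+ replicate 2, which had 408 and 134 counts, and 90.5 (16.2 to 3581) without EpiSC replicate 2. The summed TPM of 7 germ cell markers were 1796 and 1864 in BV+SC+ cells, led by Dppa3, and 8.08, 7.62 and 10.3 in EpiSCs, where Dppa3 and Nanos3 were at 0. Dppa3 and Prdm1 (mean TPM of 128 in BV+SC+ cells), the genes of the sort reporters, are among the 7, so their part was set by the sort. Without Dppa3 the summed TPM were 634 and 662 in BV+SC+ cells. For 4 primed markers they were 22.7 and 95.0 in BV+SC+ cells and 1082, 1027 and 1007 in EpiSCs, led by Dnmt3b in all but BV+SC+ replicate 2, where Otx2 led. For 7 naive markers they were 3277 and 4024, led by Dppa5a, against 94.0, 15.3 and 12.2, and without Dppa5a 709 and 661 against 91.02, 15.3 and 12.2, with Zfp42 at 0 in EpiSCs. For 6 pluripotency markers, led by Pou5f1, they were 2809 and 3206 against 4798, 4834 and 4678.

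For 11 trophoblast markers the sums were 212 and 69.0 in BV+SC+ cells, led by Peg10, and 47.6, 30.4 and 32.8 in EpiSCs, led by Krt18, where Elf5 and Cdx2 were at 0. For 5 amnion markers they were 17.5 and 2.7 against 0.22, 0.16 and 0, for 9 endoderm markers 4.32 and 8.53 against 3.35, 2.96 and 2.11, and for 8 mesoderm markers 15.5 and 3.72 against 4.57, 1.57 and 4.8. Without Dab2 the endoderm sums were 0.36 and 6.81 against 1.21, 0.39 and 0.46 and overlapped. For 8 fibroblast markers they were 4.63 and 5.74, led by Col1a2, against 23.4, 39.5 and 28.4, led by Thy1, and without Thy1 they were 4.25 and 5.55 against 4.58, 11.2 and 5.71. Trophoblast, amnion and mesoderm markers, the last through T alone, were higher in BV+SC+ replicate 1 than in replicate 2, as were Igfbp3, Igfbp4, Igfbp5, Igf1r, Insr and Igf2. Primed markers, at 22.7 in replicate 1 and 95.0 in replicate 2, ran the other way, as did Igfbp2 and the sums of the other lists. For naive markers this was through Dppa5a alone. The part of these markers in the differences between the BV+SC+ libraries was not tested.

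The third comparison asks what DOT1L inhibition changed at Day 3. With 1 library per condition there is no test, and a gene was counted as past the threshold at a log2 ratio of TPM + 1 over 1 in size, among the 14038 genes whose TPM exceeded 1 in either library. Of the 10 members, 9 met that TPM limit, and 0 were past 2-fold, beside 6.33% of all genes higher and 3.45% lower with SGC0946. The binding protein genes Igfbp2, Igfbp3, Igfbp4 and Igfbp5 had higher TPM in +SGC and the receptor genes lower TPM, each by less than 2-fold. The median log2 ratio of the 9 members was -0.09, beside 0.01 for all genes.

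Igf1r had TPM of 25.5 in +SGC and 27.3 in -SGC and a CPM ratio of 0.949 (95% counting interval 0.804 to 1.12), which includes 1. Insr had TPM of 10.02 and 14.0, a CPM ratio of 0.774 (0.651 to 0.920) and a log2 ratio of -0.44. Igf1 had 12 and 8 expected counts, above the floor in both libraries, a CPM ratio of 1.44 (0.540 to 4.05) and a log2 ratio of TPM + 1 of -0.09, so a difference was not detectable at this depth.

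Igfbp4 was the most abundant member, with TPM of 538 in +SGC and 475 in -SGC, followed by Igfbp2 with 354 and 241. The CPM ratio of Igfbp2 was 1.5 (95% Clopper-Pearson counting interval 1.36 to 1.66) and its log2 ratio of TPM + 1 was 0.55. For Igfbp4 they were 1.15 (1.09 to 1.21) and 0.18. Igfbp5 had TPM of 239.6 in +SGC and 174 in -SGC, a CPM ratio of 1.40 (1.33 to 1.47) and a log2 ratio of 0.46. Igfbp5 was thus well expressed in these Day 3 libraries, where it took 20.0% and 18.4% of the summed TPM of the binding protein genes. Igfbp3 had TPM of 65.8 and 50.5, a CPM ratio of 1.29 (1.10 to 1.52) and a log2 ratio of 0.37. The intervals of these 4 binding protein genes lay above 1 and below 2, and a spread between cultures was not measured.

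Igfbp7 had 1 and 4 counts, a CPM ratio of 0.240 (0.00487 to 2.42), Igfbp6 had 2 and 3 counts, and Igfbp1 had none. Igfbp4 took 44.9% and 50.4% of the summed binding protein TPM, and Igfbp2 29.5% and 25.5%. In the sorted Day 3 cells, at lower depth, Igfbp6 reached 52 counts, in c-Kit- cells, and Igfbp5 at most 73. In the +SGC and -SGC libraries the highest counts were 3 for Igfbp6 and 3696 for Igfbp5. The cause of this contrast between the Day 3 experiments was not tested.

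Igf2 was again among the most abundant genes, at rank 6 in +SGC and rank 4 in -SGC. Its TPM were 7044 and 11786, with a CPM ratio of 0.590 (95% counting interval 0.582 to 0.598) and a log2 ratio of -0.74. Igf2r had log2 ratio -0.37, Irs1 0.19 and Irs2 -0.23. Of 54 other pathway genes with TPM over 1, 3 were past 2-fold, beside 6.33% of all genes higher and 3.45% lower. These 3 are named here after their values were seen: Ins2 with 0 and 1 counts, Igfals with 1 and 8, and Pappa2 with 7 and 3. All 3 rest on few counts. Among the label genes, Pou5f1 had a log2 ratio of 3.01, Dppa3 of 1.97 from 21 and 3 counts, Prdm1 of 0.93, Kit of 0.23, Dot1l of 0.10 and Gata2 of -0.21.

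Marker lists differed between the 2 Day 3 libraries too. The summed TPM of 6 pluripotency markers were 1129 in +SGC, led by Pou5f1, and 454 in -SGC, led by Lin28a. For 7 germ cell markers, led by Kit, they were 326 and 173. For 11 trophoblast markers, led by Peg10, they were 2480.1 and 3134, with Elf5 at 0 in -SGC. For 8 mesoderm markers, led by Hand1, they were 532 and 679, with Mesp1 at 0 in both, and for 5 amnion markers, led by Wnt6, 168 and 291. For 7 naive markers they were 342 and 327, of which Tbx3 took 187 in +SGC and 296 in -SGC, and the other 6 naive markers summed to 155 and 31.5. They were for 8 fibroblast markers, led by Col1a1, 302 and 293, for 4 primed markers, led by Dnmt3b, 46.5 and 42.1, and for 9 endoderm markers 26.8 and 29.8, which turn to 20.5 and 12.05 without Gata6. Their part in the member values was not tested.

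By position, 4 of the 7 binding protein genes are pairs of neighbours in the mouse genome. Igfbp2 and Igfbp5 (ENSMUSG00000026185, chr1:72857932-72874884, minus strand) lie tail to tail with a gap of 5457 bases. Igfbp2 was called in both replicated comparisons and Igfbp5 in neither, and a difference between the 2 genes was not tested. Igfbp1 (chr11:7197782-7202546, plus strand) and Igfbp3 lie tail to tail as well, 3539 bases apart, and Igfbp1 had at most 13 counts in any library. Igfbp7 shares 85 exonic bases, 7.03% of its own, with Polr2b on the opposite strand, so its few counts are uncertain. Stretches of at least 75 bases at 98% identity or more were otherwise shared by Igfbp4 with Itch (1.96% of a transcript) and by Insr with Vmn2r113 (0.812%).

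The promoters of the 4 genes called in the sorted cells are shown because Igfbp2 and Igfbp3 were higher in c-Kit+ cells and Igfbp4 and Igfbp6 lower. They are from RefSeq (GRCm38.p6), run from 250 bases before to 50 after the RefSeq start, and were found for 9 of the 10 members; for Igfbp2 the upstream of its listed promoters is shown. Capitals mark matches on either strand to 4 motifs, chosen after values were seen: the core of the TATA box, which reads TATAAA, the motif of GATA factors, searched as AGATAA, the box known by its letters CCAAT, and the motif of SP factors, searched as GGGCGG. No matches overlap. The RefSeq start of Igfbp6 lies upstream of the GENCODE range printed above for that gene, and its window ends before that range begins.
Igfbp2: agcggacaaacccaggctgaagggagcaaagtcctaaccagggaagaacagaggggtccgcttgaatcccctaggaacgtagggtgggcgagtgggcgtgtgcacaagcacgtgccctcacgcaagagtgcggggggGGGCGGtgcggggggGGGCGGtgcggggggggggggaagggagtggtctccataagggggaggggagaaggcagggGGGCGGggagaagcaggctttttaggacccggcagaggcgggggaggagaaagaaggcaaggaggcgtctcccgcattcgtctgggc
Igfbp3: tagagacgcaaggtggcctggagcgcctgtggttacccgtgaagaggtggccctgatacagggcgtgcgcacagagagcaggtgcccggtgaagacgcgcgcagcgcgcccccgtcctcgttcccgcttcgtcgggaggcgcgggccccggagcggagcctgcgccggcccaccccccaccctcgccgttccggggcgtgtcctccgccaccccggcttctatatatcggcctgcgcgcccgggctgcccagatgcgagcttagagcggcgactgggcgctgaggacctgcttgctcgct
Igfbp4: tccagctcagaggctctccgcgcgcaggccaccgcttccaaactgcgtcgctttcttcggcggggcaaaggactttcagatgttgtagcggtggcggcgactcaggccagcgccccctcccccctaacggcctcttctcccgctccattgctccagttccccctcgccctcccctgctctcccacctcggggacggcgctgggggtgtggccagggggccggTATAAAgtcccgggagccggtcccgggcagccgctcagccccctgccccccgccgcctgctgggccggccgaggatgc
Igfbp6: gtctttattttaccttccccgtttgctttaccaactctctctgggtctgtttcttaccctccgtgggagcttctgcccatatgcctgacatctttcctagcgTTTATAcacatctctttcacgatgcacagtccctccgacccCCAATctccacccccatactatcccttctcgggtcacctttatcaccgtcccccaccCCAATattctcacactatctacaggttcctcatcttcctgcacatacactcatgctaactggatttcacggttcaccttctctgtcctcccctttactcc

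The windows are chr1:72824230-72824529 (plus strand) for Igfbp2, chr11:7213874-7214173 (minus strand) for Igfbp3, chr11:99040994-99041293 (plus strand) for Igfbp4 and chr15:102143936-102144235 (plus strand) for Igfbp6. Igfbp2 holds GGGCGG at 3 places, and 35.7% of all 32851 promoters of the same length hold it on either strand. Igfbp4 holds TATAAA 28 bases before the start, and Igfbp6 holds it on the opposite strand 148 bases before the start, as do 13.6% of all promoters at any place. Igfbp6 also holds CCAAT at 2 places, which 37.4% of all promoters hold. AGATAA, held by 11.2% of promoters, was in none of the member windows, and the Igfbp3 window held none of the 4 motifs. GC content was 67%, 71.7%, 71.3% and 49.7% for Igfbp2, Igfbp3, Igfbp4 and Igfbp6, with 18, 37, 27 and 8 CpG. A match of letters is a description and not a site of binding.

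Over the 7 libraries of EpiSCs, BV+SC+, +SGC and -SGC cells, the genes most like the 3 members with the highest TPM in any of these libraries were taken by Pearson's r of log2(TPM + 1) among 10637 genes. Igfbp5 is one of the 3 through +SGC and -SGC, and Igfbp3 was above it in the other 5 libraries. These libraries fall into a few groups of the same cell type, so r is a description. For Igfbp2 they were Pdap1 (r 0.995), Usp39 (0.994) and Tubb3 (0.994), with TPM of Tubb3 of 35.5 and 47.5 in BV+SC+ cells, 138.3, 164 and 138.2 in EpiSCs, 63.5 in +SGC and 53.7 in -SGC. For Igfbp4 they were Mospd2 (0.998), St3gal5 (0.997) and Gm9934 (0.996), and for Igfbp5 Hs3st3b1 (0.999), Man2a2 (0.995) and Dlx2 (0.994). Dlx2, a homeobox gene, had TPM of 105 in +SGC and 123 in -SGC and at most 0.4 in the other 5 libraries.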

How the data were processed

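RNA-seq of 11 libraries was analysed: 2 of c-Kit+, 2 of c-Kit-, 3 of EpiSC, 2 of BV+SC+, 1 of +SGC and 1 of -SGC cells, grouped by their labels. The authors aligned reads with Bowtie2 to mouse transcripts (mm10, GRCm38) and quantified genes with RSEM (1.3.1 in the labels of 7 libraries). The deposited expected counts per gene are not normalized between libraries, and the deposited TPM were computed by RSEM from them and the effective length of each gene. For EpiSC, BV+SC+ and SGC libraries the labels name rRNA-depleted total RNA and a HiSeq, while the methods name an mRNA kit on a NextSeq. Symbols came from the GENCODE M21 annotation for 99.6% of 50600 and 98.3% of 29267 identifiers. Igf1r, Insr and Igfbp4 have other effective lengths in the 2 sets of files, so TPM were not compared between sets. The ATAC-seq, ChIP-seq and single-cell samples were not used.

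Depth ran from 1726038 to 18099059 expected counts per library. Replicates were compared in pairs to find any duplicated library, and the chi-square per degree of freedom was at least 2.01. Counts were rounded and fitted per experiment with edgeR 4.0.16 under R 4.3.3 (glmQLFit and glmQLFTest after filterByExpr and TMM scaling), with Benjamini-Hochberg adjustment over all genes tested. A group at 0 was set to 3 counts in each library for a bound or, for 2 members, given the lower end of a counting interval, and 1 to 3 counts give a ratio of pooled counts with an exact conditional (Clopper-Pearson) interval at 95%. For SGC libraries, the log2 ratio of TPM + 1 was used. Alternatives were RLE factors, DESeq2 1.42.0, no filter, at least 10 counts in every library, an unadjusted p, a replicate block, each library left out, offsets for effective length, a pseudocount of 0.1 TPM, CPM, TMM scaling and other TPM limits. Fits were also run on simulated data, and the outcome is not reported here.

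Named genes are the 10 members, up to 3 called genes per pathway list and comparison by size of log2 fold change with mean TPM of at least 5, Igf2, Igf2r, Irs1 and Irs2, label genes (Kit, Prdm1, Dppa3, Pou5f1, Gata2, Dot1l), and for 3 members the 3 genes with the highest r. Another item is not reported here. Members and lists were chosen with earlier results of these data known. Shared stretches were found with BLAST+ 2.17.0. Other steps used Python 3.11.15, NumPy 2.4.6, pandas 2.3.3, SciPy 1.17.1 and Matplotlib 3.10.9.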

Additional observations from a re-analysis of the deposited data

How the results depend on the processing

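The 4 members called in c-Kit+ and the 4 called in BV+SC+ cells kept direction and call with DESeq2, RLE factors, no filter, an unadjusted p, effective-length offsets and each library left out. With at least 10 counts in every library, 1 member was called lower in c-Kit+ cells, since that filter removes Igfbp6. Without a filter, 1 member, Igf1, was called higher in BV+SC+ cells, where the median log2 fold change of all genes moved from 0.05 to 0.29. A pseudocount of 0.1 TPM put 1 member, Igfbp7 at -1.87, past 2-fold between the SGC libraries, and with TPM over 1 in both of them 0 other pathway genes were past it. Igfbp7 had 1 and 4 counts there, and the limit in both libraries removes all 3 genes past 2-fold. Insr in the sorted cells changed sign to 0.35 with effective-length offsets, and Igfbp5 in BV+SC+ cells to 0.41 without BV+SC+ replicate 2 and to 0.21 without EpiSC replicate 2, within a range from -0.82 to 0.41 over the libraries left out; none of these passed the test, and the cause was not tested. With a library left out, 2 to 3 members were called higher in c-Kit+ cells and 4 to 5 lower in BV+SC+ cells, and all genes called ran from 2064 to 2908 and from 3945 to 4650. Of the other named genes, Irs1 alone changed its call, lost without c-Kit+ replicate 2 and gained without BV+SC+ replicate 1. A lone library is assumed there to vary like the other group. Without the leading gene, sums of mesoderm markers in the sorted cells (Hand1) and of endoderm markers between the SGC libraries (Gata6) turned direction. Fibroblast (Thy1) and endoderm (Dab2) markers in BV+SC+ cells and EpiSCs came to overlap, and endoderm markers in the sorted cells ceased to, in either direction (Sox17 or Dab2). Igfbp4 in BV+SC+ cells was also called by DESeq2 (adjusted p = 0.0461), without a filter, at an unadjusted p (0.048) and without BV+SC+ replicate 1, and its log2 fold change ran from -2.07 to -0.45.

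Same-numbered libraries are not stated to be pairs, though same-numbered c-Kit+ and c-Kit- libraries carry the same date tag. Their deviations from the group mean had r of 0.114 across 5509 genes, which are not independent. With replicate number as a block, 2 members were higher and 2 lower in c-Kit+ cells and 4 lower in BV+SC+ cells, with Igfbp2 at 1.90 and -2.61 and Igfbp3 at 2.03 and -1.57. All genes called were 2527 in place of 2518, and 3830 in place of 4011. Depth limits Igf1, Igfbp1, Igfbp6 and Igfbp7, whose counts were at or near the floor in most libraries.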
